A study of Rattus norvegicus with 24 samples.

Results

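Soleus muscle of detrained rats was compared with soleus muscle of sedentary rats after both had run the same bout, using 16 of the 24 arrays of the study, 8 per group, chosen by their titles. Detrained rats (DETR) had a running wheel in the cage for 4 weeks and then none for another 4 weeks. The sedentary rats (SED) never had a wheel and spent all 8 weeks in an ordinary cage. All were females of about 14 weeks, all were made to run in a wheel for 1 h at 20 m/min at the end, and the mid-belly of the soleus was taken 24 h later, so neither group shows resting muscle. The labels name no strain, and no sedentary rats left unexercised were analysed here. The question is whether a period of voluntary running that had ended 4 weeks earlier left a difference in gene expression after a new bout.

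The soleus is a postural muscle of the hindlimb made mostly of slow fibres, which draw on fatty acids carried in by transporters, passed into mitochondria by the carnitine system and broken down by beta-oxidation. Endurance exercise is known to induce much of that machinery through PPAR receptors and their coactivators, and the day after a bout is a time when genes of lipid oxidation and repair are often raised. When running stops, mitochondrial and metabolic adaptations are known to decline within weeks.

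Each array was 1 rat and 1 colour. A level here is the log2 signal of a gene's probe relative to the 75th percentile of its array, and a difference is log2 DETR minus SED from a limma model with group and slide as terms, with its standard error (SE). The arrays lay on 3 slides. Both groups were on slide 1 (2 SED, 6 DETR) and on slide 3 (2 SED, 2 DETR), but the 4 arrays of slide 2 were all SED, so with the slide term the size of a difference came from slides 1 and 3 only and slide 2 added to the spread. Slide 3 was scanned on a different day and was dimmer, with 75th percentiles of 186 to 339, than slide 1 (817 to 1184) and slide 2 (1150.01 to 1410.36). Of all probes, 62.4% to 78.2% were well above background on the SED arrays and 59.0% to 85.4% on the DETR arrays. The slow myosin gene Myh7, the defining gene of slow fibres, was well above background on all 16 arrays, at 8.24 to 10.08 in SED and 8.59 to 10.32 in DETR muscle.

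No gene passed an adjusted p of 0.05. Of 19728 features tested, 0 were called (0% of the features, limma with Benjamini-Hochberg adjustment), and the smallest adjusted p was 0.0915. At an unadjusted p under 0.05 there were 1752 features (8.88%), of which 1308 were higher in detrained muscle (6.63%) and 444 lower (2.25%). Higher features made up 74.7% of these. That share was 61.9% after quantile normalization, 60.9% after normexp background correction and 56.4% in the authors' normalized table, so the excess of higher features depended on the scaling. It also turned between slides: of the features at an unadjusted p under 0.05, 86.5% were higher on slide 1 alone and 37.3% on slide 3 alone. The median over all features was 0.03, and by level it ran from 0.09 in the dimmest of 4 equal classes of features to 0.03 in the brightest. Because no gene passed, genes below are described as higher or lower in value with their interval or spread, and lists by counts and medians beside those of all features.

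The 2 slides that hold both groups share no array and gave separate readings of the same difference. Across all features these readings were not alike. The Pearson correlation between them was -0.09 and the Spearman correlation -0.12 over 19728 features, and 45.6% had the same sign. A test of whether the difference itself changed between slides 1 and 3, added after the differences were seen, called 0 features in limma at an adjusted p of 0.05, with 2365 at an unadjusted p under 0.05. Features lower on both slides made up 16.8% of all and features higher on both 28.8%. Features with every DETR array below every SED array on each of the 2 slides made up 0.441% of all, and those with every DETR array above 1.85%. Genes named below for a small p were picked on these same arrays, so their separation on these slides is not separate evidence.

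Genes that take up and burn fatty acids were mostly lower in detrained muscle. Of 45 measured genes of fatty acid uptake, activation, mitochondrial entry and beta-oxidation, 36 were lower (80%, against 41.6% of all features) and 31 were lower on both slide 1 and slide 3 (68.9%, against 16.8%). In this list 13 genes had an unadjusted p under 0.05 and were lower (28.9%, against 2.25%), and 0 were higher (0%, against 6.63%). The median of the 24 uptake and handling genes was -0.22 (slide 1 -0.21, slide 3 -0.25) and that of the 21 beta-oxidation genes -0.20 (slide 1 -0.11, slide 3 -0.28). Without the slide term, which lets the SED arrays of slide 2 enter the difference, these medians were -0.06 and -0.08. No member passed the adjusted threshold (smallest adjusted p 0.271).

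The list levels by array show where the groups met. As the median deviation of the uptake genes from their means over the 16 arrays, the SED arrays of slide 1 were at 0.23 and 0.22 and the DETR arrays beside them at -0.12 (lowest), 0.08 (median) and 0.28 (highest). On slide 3 the SED arrays were at -0.28 and 0.14 and the DETR arrays at -0.04 and -0.56. The 4 SED arrays of slide 2 ran from -0.23 to 0.22. The groups overlapped on both shared slides, and the SED arrays of slide 2 covered most of the range of the DETR arrays of slide 1.

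Beta-oxidation itself is carried out inside mitochondria by a set of enzymes, and Hadhb and Hadha encode the 2 subunits of the trifunctional protein, which handles long chains. Hadhb was at 2.54 and 2.90 on the SED arrays of slide 1, against 2.20 (lowest), 2.37 (median) and 2.62 (highest) on the 6 DETR arrays, and at 2.68 and 2.98 against 2.27 and 2.21 on slide 3. All DETR arrays were below the SED arrays on slide 3, and on slide 1 only 1 of 6 reached the lower SED value. The SED arrays of slide 2 lay at 2.25 to 2.56, in the range of the DETR arrays. The difference was -0.45 ± 0.10 (SE, n = 8 per group, 95% interval -0.67 to -0.23, adjusted p = 0.271 in limma). Hadha, named here after its value was seen, differed by -0.35 ± 0.14, with -0.19 on slide 1 and -0.58 on slide 3.

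Hadha and Hadhb lie head to head in the rat genome. In the RefSeq promoter table (assembly GRCr8) their start sites are 300 bases apart on opposite strands of chromosome 6, at 31907801 and 31907500. The 250 bases before the Hadhb start are shown because 200 of them, in capitals, are also within the 250 bases before the Hadha start (chr6:31907501-31907750, minus strand, 5′ to 3′).
Hadhb: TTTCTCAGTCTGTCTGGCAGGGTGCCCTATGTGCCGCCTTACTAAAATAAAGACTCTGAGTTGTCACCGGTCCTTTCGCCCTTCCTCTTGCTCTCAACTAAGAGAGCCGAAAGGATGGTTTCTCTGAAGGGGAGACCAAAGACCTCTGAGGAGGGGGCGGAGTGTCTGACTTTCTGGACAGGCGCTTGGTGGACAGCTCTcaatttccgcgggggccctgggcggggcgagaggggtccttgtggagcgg

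Of the other beta-oxidation enzymes, Acaa2, the thiolase that ends the cycle for medium chains, stood at 3.60 and 3.83 in the SED arrays of slide 1, against 3.21, 3.41 and 3.66 (lowest, median and highest) in DETR. On slide 3 it stood at 3.06 and 3.35 in SED and 2.53 and 2.37 in DETR. Its difference was -0.48 ± 0.13 (adjusted p = 0.324, limma), with complete separation on slide 3 and overlap on slide 1. Eci2, which rearranges unsaturated chains, differed by -0.44 ± 0.15. The remaining genes of this step with an unadjusted p under 0.05 were named after their values were seen: Acadvl, the very long chain dehydrogenase, differed by -0.31 ± 0.11, Etfdh, which passes electrons from these dehydrogenases to the respiratory chain, by -0.34 ± 0.12, Eci1 by -0.47 ± 0.22 and Acadm, the medium chain dehydrogenase, by -0.21 ± 0.09. Echs1, Etfb, Acat1 and Echdc1 were the 4 members with positive values, from 0.01 to 0.11.

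**Figure D1:**
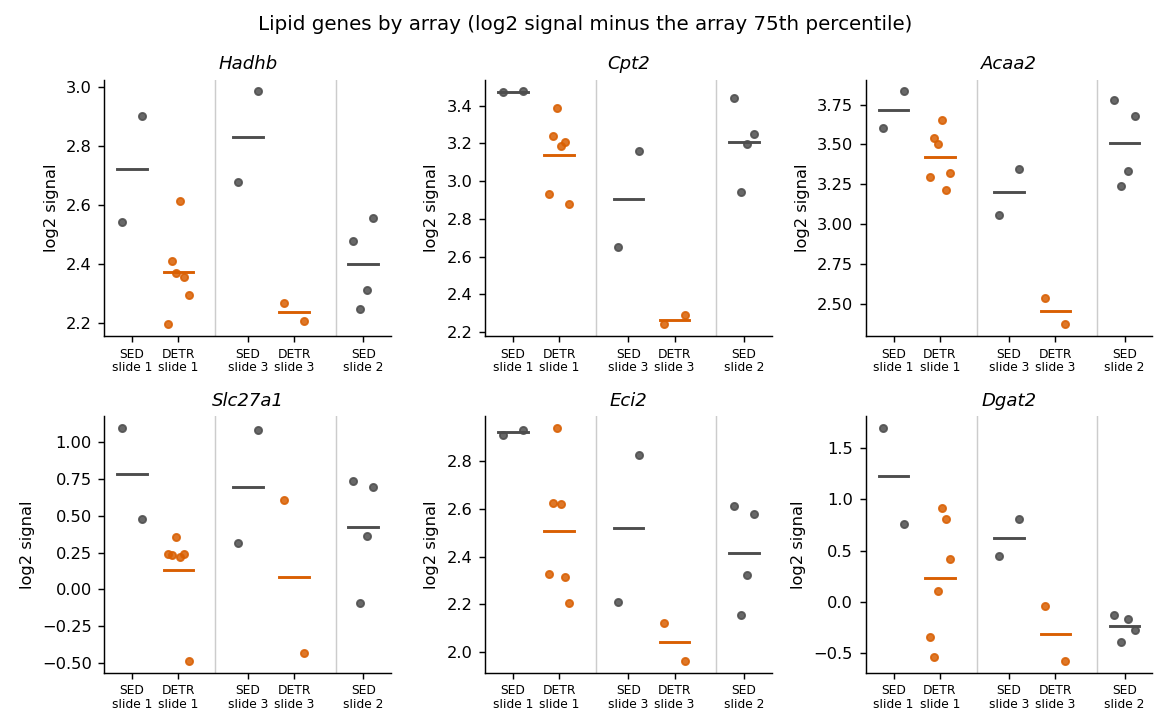
Log2 signal relative to the array 75th percentile (vertical axes) of 6 lipid genes in each array, by group and slide; points are rats, bars are means, grey is SED and orange is DETR. On slides 1 and 3 the DETR means were below the SED means for all 6 genes, and the SED arrays of slide 2 overlapped the DETR arrays of slide 1.

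Entry into the cell and the mitochondrion showed the same sign. Cpt2, which completes the carnitine shuttle at the inner membrane, was at 3.47 and 3.48 in the SED arrays of slide 1 and at 2.88, 3.20 and 3.39 (lowest, median and highest) in DETR. Slide 3 had it at 2.65 and 3.16 in SED and 2.24 and 2.29 in DETR. Every DETR array was thus below every SED array of its slide, while the SED arrays of slide 2 ran from 2.94 to 3.44. The difference was -0.46 ± 0.13 (95% interval -0.73 to -0.18, adjusted p = 0.324, limma). Cpt1b, the muscle form of the enzyme at the outer membrane that controls entry, differed by -0.22 ± 0.13, and Cd36, a fatty acid translocase of the surface, by -0.15 ± 0.14, neither with an unadjusted p under 0.05.

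Slc27a1 encodes the fatty acid transport protein FATP1. It was at 1.097 and 0.476 on the SED arrays of slide 1 and at -0.49, 0.24 and 0.35 (lowest, median and highest) on the DETR arrays. On slide 3, where the groups overlapped, it was at 0.31 and 1.08 in SED and at 0.60 and -0.43 in DETR. The difference was -0.64 ± 0.24 (adjusted p = 0.454, limma). Acot1, a thioesterase that frees fatty acids from coenzyme A, differed by -0.35 ± 0.14 with every DETR array below every SED array on both slides, and Plin5, a coat protein of lipid droplets that touch mitochondria, by -0.90 ± 0.40. Acacb, the carboxylase whose product restrains entry through Cpt1b, was also lower, by -0.21 ± 0.10 (named after its value was seen).

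PPAR receptors are known to drive many of these genes. The 16 measured PPAR target genes of muscle had the second lowest median of the 34 lists, -0.33. Of the 16, 13 were lower (81.3%, against 41.6% of all features), 3 of them at an unadjusted p under 0.05 (18.8%, against 2.25%). Acot1 and Plin5 were among these 3 and are also counted in the uptake list, so the lists are not separate readings. A part of the receptors was not tested. The median of the PPAR target list was -0.21 without DETR replicate 8 and -0.15 without the slide term. Ucp3, a mitochondrial carrier, and Pdk4, the kinase that spares glucose by switching off pyruvate dehydrogenase, had wide intervals: -1.29 ± 0.80 (95% interval -3.00 to 0.41) and -0.88 ± 0.54 (-2.03 to 0.26). On slide 3 Ucp3 was at 0.23 and 2.80 in SED and at 2.37 and -1.76 in DETR, so its DETR arrays differed from each other by more than the groups did.

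The receptors and coactivators themselves showed no such shift. The 23 measured PPAR and PGC-1 regulators had a median of 0.02, with 14 higher (60.9%, against 58.4% of all features) and 9 lower. Rxra, the partner receptor of the PPARs, was the 1 member with an unadjusted p under 0.05 (4.35%, against 6.63% higher among all features). It differed by 0.33 ± 0.14. Ppargc1a, the exercise-induced coactivator PGC-1alpha, differed by 0.10 ± 0.14 (95% interval -0.21 to 0.41), with -0.04 on slide 3. The respiratory chain, another main product of PGC-1alpha activity, had a median of 0.02 over 47 genes, and the citrate cycle -0.05 over 19; Cs, citrate synthase, a common measure of mitochondrial content, differed by -0.04 ± 0.08 (95% interval -0.21 to 0.13) and was positive on slide 3, without the slide term and with all 24 arrays in the fit.

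Promoters of these genes were searched for short motifs in the RefSeq windows from 250 bases before to 50 after each start, on both strands. The measured genes of the 34 lists number 719, of which 563 had a window. Of 10 motifs, 7 were chosen with the lists and 3 (TCACNCCAC, TTATGTAA and CCAAT) after differences had been seen. The full PPAR element, 2 copies of AGGTCA with 1 base between them, was in 0 of 22 windows of the uptake list, 0 of 18 of beta-oxidation and 0 of 14 of the PPAR targets, against 0.054% of 33469 windows in the table. The element of the estrogen-related receptors, TCAAGGTCA, was likewise in 0 windows of those 3 lists (0.433% of all). A shorter form of the PPAR element, TGACCTNTG, was in 2 of 22 uptake windows, those of Slc27a1 and Acacb, and in 0 of 18 and 0 of 14 windows of the other lists, against 1.56% of all. The Slc27a1 promoter is shown as the listed gene with the larger difference of those that hold this motif (chr16:18312717-18312966, plus strand, GRCr8; the motif is in capitals).
Slc27a1: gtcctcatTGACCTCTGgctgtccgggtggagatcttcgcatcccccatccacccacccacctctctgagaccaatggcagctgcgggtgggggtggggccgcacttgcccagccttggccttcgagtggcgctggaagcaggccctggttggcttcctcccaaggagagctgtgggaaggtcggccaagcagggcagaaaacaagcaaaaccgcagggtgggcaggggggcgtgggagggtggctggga

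A match describes these letters only, and its absence from a window of this length says nothing about binding elsewhere.

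Adipocyte markers were also mostly lower. Of 16 measured, 12 were lower (75%, against 41.6%), 2 of them at an unadjusted p under 0.05 (12.5%, against 2.25%), and the list median was -0.18. Those 2 were Aqp7, a glycerol channel, at -0.94 ± 0.34 and Gpd1 at -0.51 ± 0.24. The list level ran from -0.42 to 0.44 in SED and from -0.60 to 0.40 in DETR. Of the defining genes, Adipoq differed by -0.34 ± 0.44, Plin1 by 0.02 ± 0.27 and Fabp4 by -0.08 ± 0.16. Macrophage markers had a median of -0.10, with 0.11 on slide 1 and -0.35 on slide 3. Tendon markers had a median of -0.35, the lowest of the 34 lists. Their list levels ran from -0.80 to 1.71 in SED and from -0.82 to 0.71 in DETR. At an unadjusted p under 0.05, 0 tendon markers were lower (0%, against 2.25%). The 1 higher was Mkx, at 0.36 ± 0.15 (6.25%, against 6.63% of all features). The part of these cells in the lipid result was not tested, and fewer cells of a type cannot be told apart from less RNA per cell in a piece of whole muscle.

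**Figure D2:**
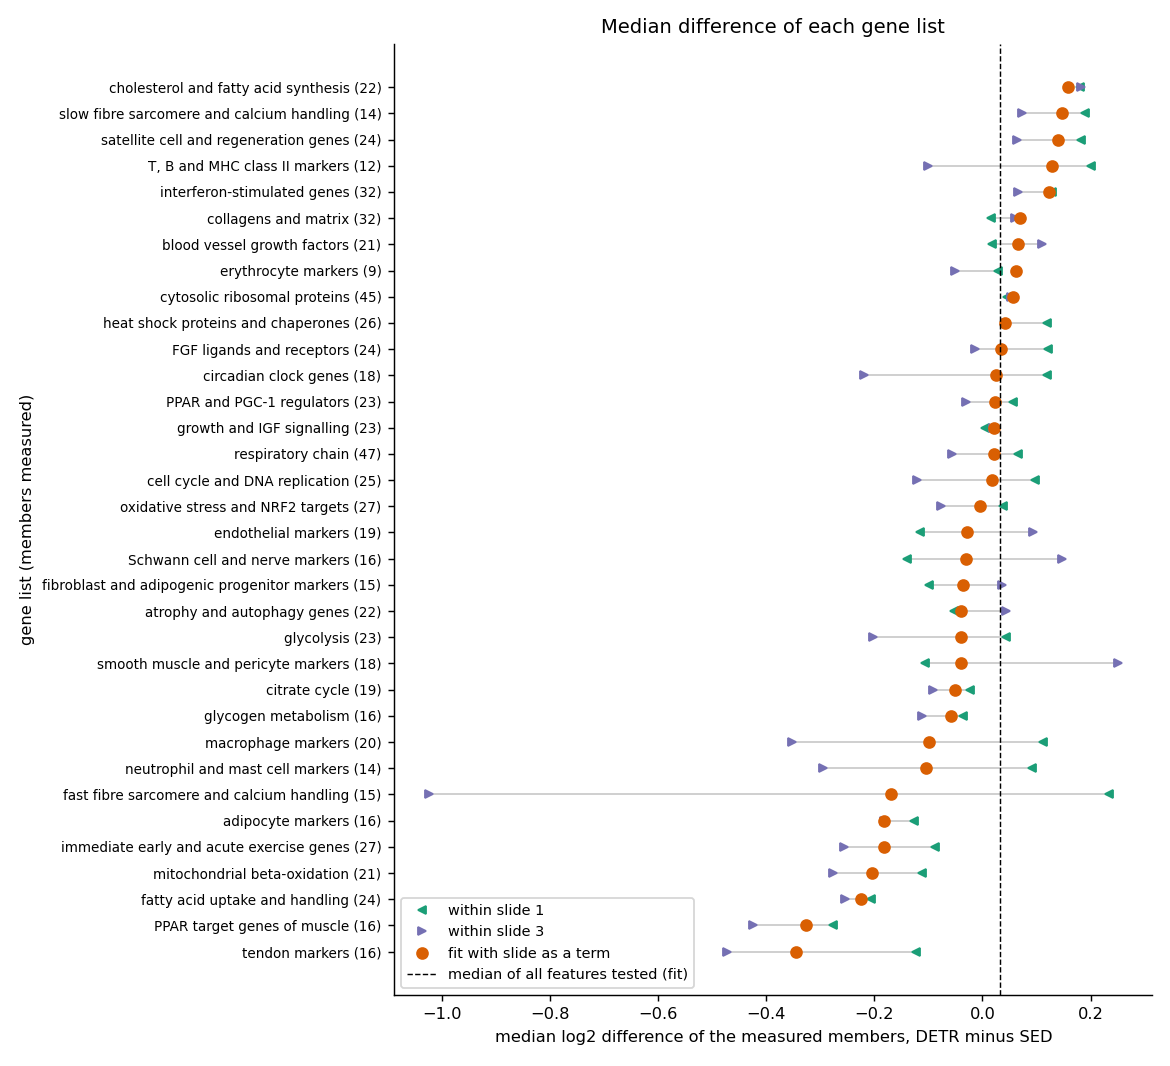
Median log2 difference, DETR minus SED (horizontal axis), of the measured members of each of 34 gene lists (vertical axis, with the number measured); circles are the fit with slide as a term, triangles the values within slide 1 and within slide 3, and the dashed line is the median of all features, 0.03. The lists of fatty acid uptake, beta-oxidation and PPAR targets lie below the line on both slides. So do others, among them tendon markers, adipocyte markers, immediate early genes, glycogen metabolism and the citrate cycle. The fast fibre list differs in sign between slides.

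Genes of lipid synthesis mostly had the opposite sign in the fit. Of 22 measured genes of cholesterol and fatty acid synthesis, 17 were higher in detrained muscle (77.3%, against 58.4% of all features) and 13 were higher on both slides (59.1%, against 28.8%). The median was 0.16, the highest of the 34 lists, with 0.18 on each slide, 0.10 without the slide term, 0.11 without SED replicate 1 and 0.08 after normexp. At an unadjusted p under 0.05 there were 5 higher members (22.7%, against 6.63%) and 1 lower (4.55%, against 2.25%). The list levels overlapped on both shared slides. They were -0.20 and 0.08 in SED and -0.05 to 0.26 in DETR on slide 1. On slide 3 they were -0.29 and -0.12 in SED and -0.22 and 0.14 in DETR. The SED arrays of slide 2, at -0.03 to 0.08, were within the DETR range of slide 1.

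Sqle, squalene epoxidase, an early committed step of sterol synthesis, was at -3.49 and -2.66 in the SED arrays of slide 1 and at -2.95, -2.54 and -1.78 (lowest, median and highest) in DETR, which overlapped. On slide 3 it was at -3.38 and -3.56 in SED and at -2.83 and -2.08 in DETR, which did not. The difference was 0.75 ± 0.23 (95% interval 0.26 to 1.24, adjusted p = 0.358, limma), and the SED arrays of slide 2, at -2.66 to -2.25, were within the DETR range. Hmgcs1, which makes the precursor of mevalonate, differed by 0.26 ± 0.09. Srebf1, the transcription factor that drives lipid synthesis, Idi1 and Dhcr7 were named after their values were seen and differed by 0.58 ± 0.20, 0.25 ± 0.10 and 0.21 ± 0.09.

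Of the synthesis genes 5 were lower in the fit (22.7%, against 41.6% of all features), 4 of them on both slides. The lower member with an unadjusted p under 0.05 was Dgat2, the enzyme that completes triglyceride synthesis. It was at 1.69 and 0.76 in the SED arrays of slide 1 and at -0.53, 0.26 and 0.91 (lowest, median and highest) in DETR. Slide 3 had it at 0.44 and 0.80 in SED and at -0.04 and -0.57 in DETR. Its difference was -0.97 ± 0.26 (95% interval -1.54 to -0.40, adjusted p = 0.324, limma), but the SED arrays of slide 2 lay at -0.39 to -0.12, inside the DETR range. Gpam, which starts triglyceride synthesis, had -0.41 ± 0.26. The sterol element TCACNCCAC, searched after the differences were seen, was in 0 of 15 promoter windows of this list (1.12% of all), and the CCAAT box was in 11 of 15 (37.5% of all).

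**Figure D3:**
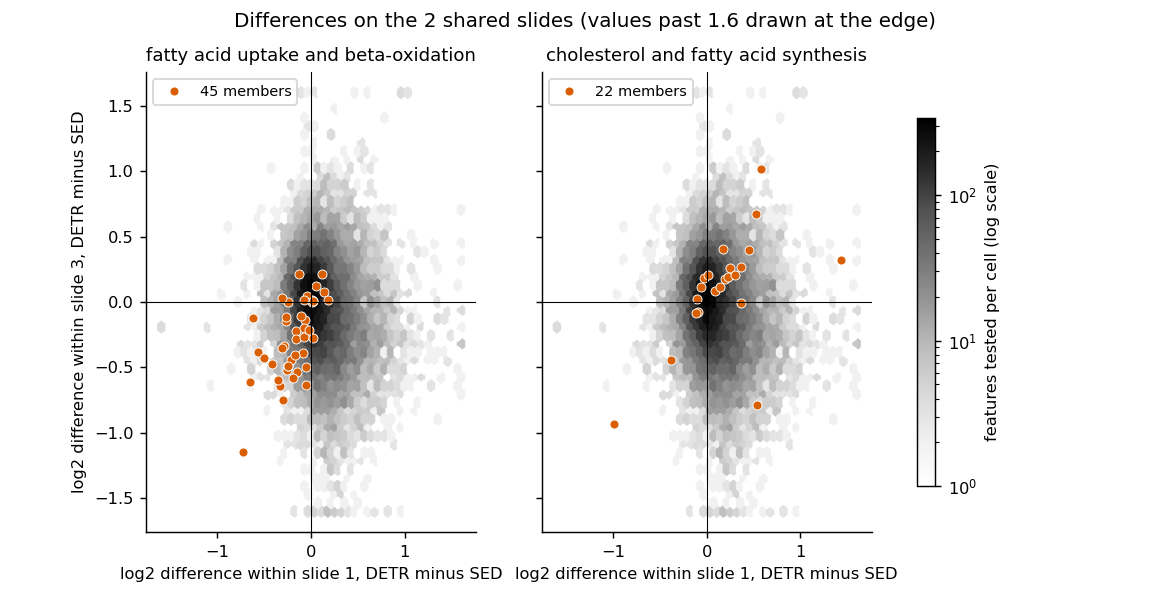
Log2 difference, DETR minus SED, within slide 1 (horizontal axis) against that within slide 3 (vertical axis); grey cells count all 19728 features on a log scale and orange points are the 45 genes of fatty acid uptake and beta-oxidation (left) or the 22 of cholesterol and fatty acid synthesis (right). Of the fatty acid genes 31 lie at the lower left, negative on both slides, and of the synthesis genes 13 lie in the upper right.

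Chaperones protect and refold proteins and are induced by exercise and heat. Of 26 measured, 16 were higher (61.5%, against 58.4% of all features) and 13 were higher on both slides (50%, against 28.8%). At an unadjusted p under 0.05, 7 were higher (26.9%, against 6.63%) and 1 lower (3.85%, against 2.25%). The list median of 0.04 was close to that of all features. Hspa1b, the inducible HSP70, was at 1.42 and 1.44 on the SED arrays of slide 1 and at 1.29, 2.20 and 2.74 (lowest, median and highest) on the DETR arrays. On slide 3 it was at 0.95 and 0.54 in SED and at 1.52 and 1.36 in DETR. The difference was 0.69 ± 0.25 (adjusted p = 0.451, limma), and 1 of 6 DETR arrays of slide 1 was below both SED arrays. The SED arrays of slide 2 ran from 1.31 to 2.25 and overlapped it.

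Hspa2, a further HSP70, differed by 0.40 ± 0.11 with every DETR array above every SED array on both slides. Hsph1, an exchange factor of HSP70, differed by 0.42 ± 0.12, with 0.46 on slide 1 and 0.35 on slide 3, and Hspa4, its relative, by 0.23 ± 0.08. Hspa5, the chaperone of the endoplasmic reticulum, Hsp90aa1 and Cryab, named after their values were seen, differed by 0.30 ± 0.11, 0.33 ± 0.15 and 0.28 ± 0.13. The lower one at an unadjusted p under 0.05 was Dnajb5, at -0.19 ± 0.08. Hspd1 and Hspe1, the mitochondrial chaperonin pair, differed by -0.05 ± 0.07 and -0.03 ± 0.09.

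The heat shock element, searched as GAA, TTC and GAA with 2 bases of any kind between neighbours, was in 5 of 20 chaperone windows (25%, against 0.798% of all), those of Dnaja1, Hspa8, Hspd1, Hspe1 and Hsph1. The matches in the Hspd1 window are the reverse complements of those in the Hspe1 window, so the same bases may be counted in both. Of these 5 genes Hsph1 alone had an unadjusted p under 0.05, so its promoter is shown (chr12:10427118-10427367, plus strand, GRCr8; the element, here on the opposite strand, is in capitals). Hspa8 and Dnaja1, which hold the same element, differed by -0.03 ± 0.09 and 0.04 ± 0.10.
Hsph1: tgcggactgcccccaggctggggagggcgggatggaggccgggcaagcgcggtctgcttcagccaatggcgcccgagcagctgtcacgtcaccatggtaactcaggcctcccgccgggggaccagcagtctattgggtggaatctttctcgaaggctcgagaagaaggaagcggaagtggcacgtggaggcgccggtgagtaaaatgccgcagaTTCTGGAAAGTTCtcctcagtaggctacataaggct

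Fgf2, basic fibroblast growth factor, which stimulates the satellite cells of muscle, was among the genes with the smallest p. It was at -3.16 and -3.05 on the SED arrays of slide 1 and at -2.55, -2.51 and -2.20 (lowest, median and highest) on the DETR arrays. Slide 3 had it at -2.54 and -2.95 in SED and at -1.88 and -2.39 in DETR. All 8 DETR arrays were above the SED arrays of their slide, while the SED arrays of slide 2, at -2.83 to -2.39, overlapped the DETR arrays of slide 1. The difference was 0.65 ± 0.12 (95% interval 0.39 to 0.91, adjusted p = 0.166, limma). The FGF list as a whole was close to all features. Of 24 measured ligands, receptors and responders, Fgf2 included, 14 were higher (58.3%, against 58.4% of all features) and 10 lower. The list median was 0.03, as over all features. Fgfr1, a main FGF2 receptor, differed by -0.21 ± 0.09. Over the 16 arrays, after slide means were removed, the genes whose levels were most like that of Fgf2 were E2f3 (Pearson r = 0.95), Krcc1 (0.93), Rab11fip5 (0.88), Doc2g (0.88) and Dear (0.86), chosen for this from all named features that passed the filter. The group difference was not removed, so it is part of these correlations, and all of these genes had positive differences, from 0.26 to 0.82. Other probes of E2f3 and Rab11fip5 differed by 0.10 and 0.08.

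The genes with the smallest p among all named features were Atrx, Galr1 and Dyrk2 on the higher side. Atrx, a chromatin remodeller, was at -0.67 and -0.82 in the SED arrays of slide 1, against -0.50, -0.36 and -0.27 (lowest, median and highest) in DETR, and at 0.29 and 0.40 against 0.96 and 1.00 on slide 3. The difference was 0.47 ± 0.07 (adjusted p = 0.0915, limma), and its 3 probes gave 0.47, 0.45 and 0.24. Dyrk2, a protein kinase, differed by 0.85 ± 0.15 and its other probe by 0.61; the SED arrays of slide 2, at 0.24 to 0.57, were at the DETR level. Galr1, a galanin receptor, differed by 0.71 ± 0.11, well above background on 6 SED and 7 DETR arrays. Krcc1, Qser1, Arid3a, Zbtb8a, Narf and Armcx1 completed the 10, with differences from 0.38 to 0.67 and adjusted p from 0.166 to 0.237. The probes of Arid3a were not alike, at 0.67 and 0.04.

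On the lower side the 10 genes were C17h6orf52, Inmt, Impa2, Ephx1, Tpd52l1, Slc46a3, Vom1r26, Twf2, Recql5 and Hadhb, with adjusted p from 0.0915 to 0.271. Inmt, a methyltransferase of small amines, was at -3.25 and -2.83 on the SED arrays of slide 1 and at -4.32, -3.70 and -3.48 (lowest, median and highest) on the DETR arrays, and at -4.22 and -3.90 against -5.72 and -5.03 on slide 3. It differed by -0.96 ± 0.18. Impa2, an inositol monophosphatase, differed by -0.58 ± 0.11, and Ephx1, the microsomal epoxide hydrolase, by -0.58 ± 0.12. In all 3 every DETR array was below every SED array on both shared slides. For Ephx1 the SED arrays of slide 2, at -0.83 to -0.33, lay over the DETR arrays of slide 1. All 3 probes of Tpd52l1 were lower, from -0.55 to -0.49.

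**Figure D4:**
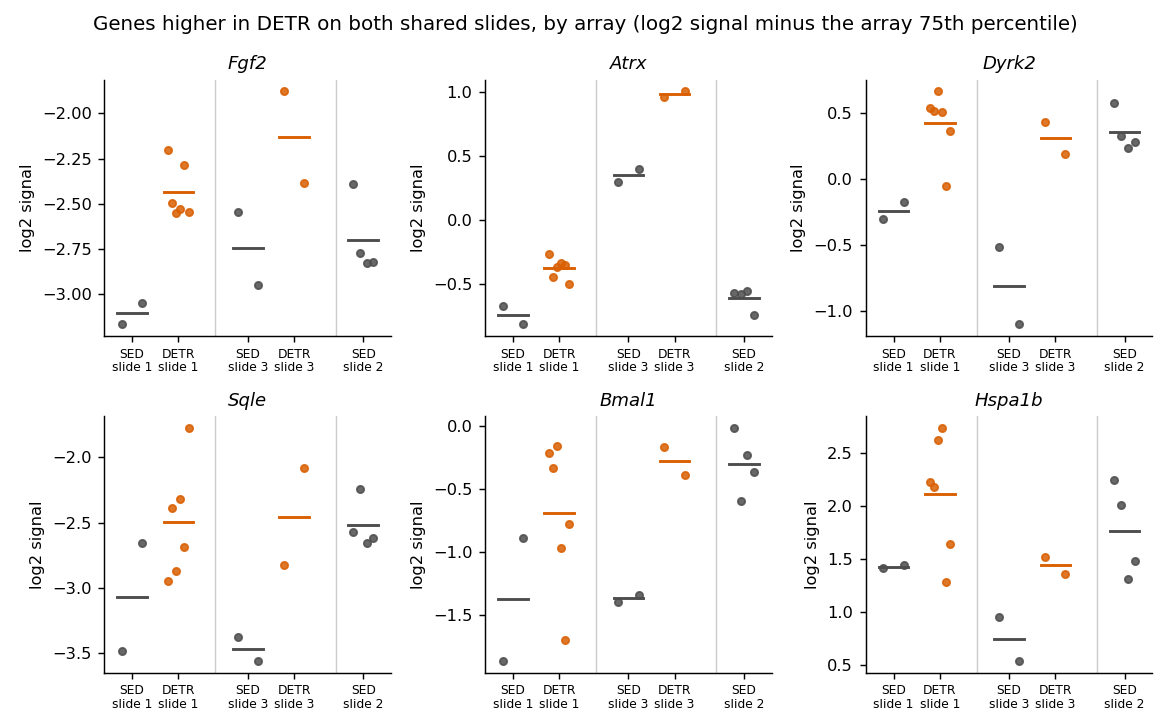
Log2 signal relative to the array 75th percentile (vertical axes) of 6 genes with positive differences, in each array, by group and slide; points are rats, bars are means, grey is SED and orange is DETR. Every DETR array was above the SED arrays of its slide for Fgf2, Atrx and Dyrk2, while Sqle, Bmal1 and Hspa1b overlapped on slide 1.

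Clock genes as a list did not lean one way: the median over 18 genes was 0.02, and -0.01 or -0.02 under the other scalings. Bmal1, which with Clock forms the activator of the circadian loop, was at -1.86 and -0.89 on the SED arrays of slide 1 and at -1.70, -0.55 and -0.16 (lowest, median and highest) on the DETR arrays. Slide 3 had it at -1.40 and -1.34 in SED and at -0.16 and -0.39 in DETR. The groups overlapped on slide 1 and not on slide 3, and the SED arrays of slide 2, at -0.59 to -0.02, were at the level of the higher DETR arrays. Bmal1 differed by 0.85 ± 0.27 (adjusted p = 0.383, limma) and Clock by 0.39 ± 0.13. Tef, an output factor that the pair activates, differed by -0.49 ± 0.15, with every DETR array below the SED arrays of its slide. Nr1d1, the repressor of Bmal1, differed by -0.01 ± 0.33 and Dbp, another output, by -0.14 ± 0.34 (both named after their values were seen). The labels do not say at which hour each muscle was taken. The D-box TTATGTAA, which Tef and Dbp bind, was in 1 of 19 windows of the list, that of Per2 (0.893% of all).

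Interferon-stimulated genes carried small positive values: 28 of 32 measured were higher (87.5%, against 58.4%), 17 on both slides (53.1%, against 28.8%). The median was 0.12, and 1 member was higher at an unadjusted p under 0.05 (3.1%, against 6.63% of all features). The median ran from 0.07 without DETR replicate 5 to 0.19 without SED replicate 8. That member, Ifih1, a sensor of double-stranded RNA, was at -4.49 and -4.70 on the SED arrays of slide 1 and at -5.00, -4.32 and -3.86 (lowest, median and highest) on the DETR arrays. On slide 3 it was at -4.56 and -4.64 in SED and at -3.76 and -3.57 in DETR. The groups overlapped on slide 1 and not on slide 3, and the difference was 0.54 ± 0.24 (adjusted p = 0.531, limma). Parp9 had 0.39 ± 0.20 and Ifi44 0.56 ± 0.33, both named after their values were seen. The list level by array overlapped widely, from -0.24 to 0.28 in SED and from -0.27 to 0.41 in DETR, and the 2 highest DETR arrays were replicates 5 and 6.

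The core of the interferon response element, searched as GAAA, 2 bases of any kind and GAAA, was in 16 of 24 windows of this list (66.7%, against 3.92% of all). The Ifih1 promoter is shown as that of the member with the smallest p (chr3:67683969-67684218, minus strand, GRCr8; the core is in capitals).
Ifih1: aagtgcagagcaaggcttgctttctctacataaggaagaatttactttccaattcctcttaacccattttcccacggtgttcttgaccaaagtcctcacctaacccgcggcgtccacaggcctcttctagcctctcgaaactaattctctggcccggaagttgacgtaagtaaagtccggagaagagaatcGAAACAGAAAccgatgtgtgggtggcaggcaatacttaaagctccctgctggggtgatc

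Slow fibre genes had mostly positive values that depended on the scaling. Of 14 slow fibre genes 11 were higher (78.6%, against 58.4% of all features) and 3 of them had an unadjusted p under 0.05 (21.4%, against 6.63%), with a median of 0.15, against 0.03 after quantile normalization, 0.02 after normexp and 0.01 in the authors' table. Sln, sarcolipin, a brake on the calcium pump, was at 4.50 and 4.26 on the SED arrays of slide 1, against 4.66, 4.93 and 5.56 (lowest, median and highest) in DETR, and at 4.23 and 3.53 against 4.31 and 4.55 on slide 3. Every DETR array was above the SED arrays of its slide, and the difference was 0.59 ± 0.16 (adjusted p = 0.324, limma). Casq2 and Casq1, the calcium stores of slow and fast fibres, differed by 0.27 ± 0.10 and 0.22 ± 0.07, and Atp2a2, the slow calcium pump, by 0.25 ± 0.11; second probes gave 0.03 for Casq1 and 0.06 for Atp2a2. Myh7 differed by 0.21 ± 0.12 and by -0.02 after normexp and -0.06 in the authors' table.

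Fast fibre genes were mostly lower in the fit but differed in direction between slides. Of 15 measured, 11 were lower (73.3%, against 41.6% of all features) and 2 were lower on both slides (13.3%, against 16.8%). At an unadjusted p under 0.05, 0 were lower (0%, against 2.25%) and 1 was higher (6.67%, against 6.63%). Their median was -0.17 over 15 genes, with 0.23 on slide 1 and -1.02 on slide 3. Myh1, the fast myosin of type IIx fibres, varied most: on slide 1 it was at 4.69 and 3.56 in SED and at 0.44, 2.99 and 6.60 (lowest, median and highest) in DETR, and on slide 3 at 5.50 and 5.01 in SED and at 0.25 and 1.63 in DETR. Its difference of -2.26 ± 1.37 had a 95% interval from -5.19 to 0.68. On SED replicate 3, Myh1, Myh2 and Myh4 were at -3.51, -1.50 and -4.24, far below the other SED arrays. The signs of Myh2 and Myh4 changed between slides and settings.

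Genes of growing and regenerating fibres lay above the median of all features in the fit. Of 24, 19 were higher (79.2%, against 58.4%), 4 at an unadjusted p under 0.05 (16.7%, against 6.63%). The median was 0.14 (0.05 without SED replicate 2, 0.20 without DETR replicate 7, 0.02 without the slide term). On slide 1 the list level was -0.168 and -0.005 in SED and -0.051 to 0.051 in DETR. The SED arrays of slide 2, at 0.075 to 0.128, lay above every DETR array, the highest at 0.055. Myh3, the embryonic myosin, was at 4.05 and 3.68 on the SED arrays of slide 1 and at 4.53, 4.69 and 4.75 (lowest, median and highest) on the DETR arrays. On slide 3 the groups overlapped, at 4.25 and 4.39 in SED and 5.10 and 4.22 in DETR. It differed by 0.61 ± 0.16 (adjusted p = 0.324, limma), and by 0.62 on its other probe. Actc1, cardiac actin, which developing muscle also makes, differed by 0.89 ± 0.36. On slide 1 it was at 5.821 and 3.866 in SED and at 5.245, 6.065 and 6.685 (lowest, median and highest) in DETR, which overlapped. Slide 3 had it at 6.079 and 5.743 in SED and at 6.413 and 6.345 in DETR. The SED arrays of slide 2, at 5.127 to 6.462, overlapped the DETR arrays of slide 1.

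**Figure D5:**
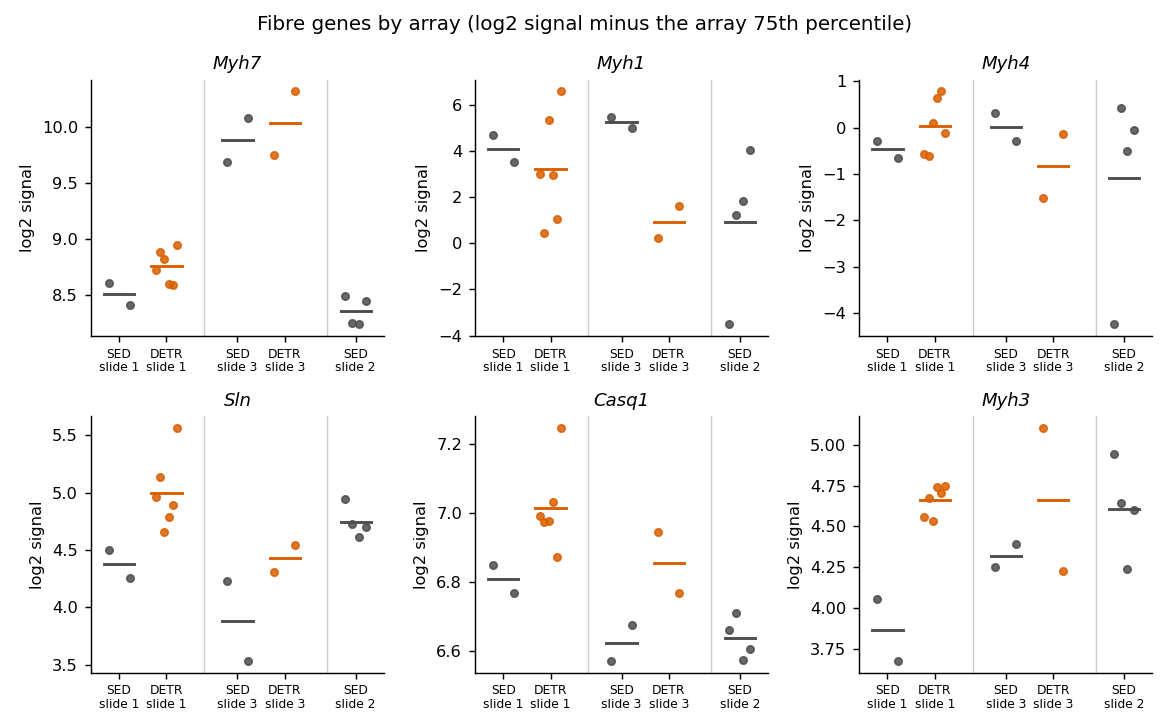
Log2 signal relative to the array 75th percentile (vertical axes) of 6 fibre genes in each array, by group and slide; points are rats, bars are means, grey is SED and orange is DETR. Myh1 and Myh4 vary widely between rats of one group, with SED replicate 3 lowest at -3.51 and -4.24, while Sln and Casq1 are higher in every DETR array than in the SED arrays of the same slide.

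Further lists are given by their members at an unadjusted p under 0.05. Among 23 glycolysis genes 4 were lower (17.4%, against 2.25% of all features) and 1 higher (4.35%, against 6.63%). Pfkfb1, a regulator of glycolytic flux, had the smallest p, at -0.56 ± 0.18. The glycolysis median of -0.04 differed in sign between slides, with 0.04 on slide 1 and -0.20 on slide 3. The list levels of the SED arrays of slide 2, at -0.34 to -0.11, lay below those of the DETR arrays of slide 1, at 0.03 to 0.16. Of 16 glycogen genes 2 were lower (12.5%, against 2.25%), Pygm, the muscle phosphorylase, at -0.27 ± 0.11 and Pgm1 at -0.31 ± 0.12. Pygm was positive without the slide term. Pgm1 was highest in SED on replicate 2, an array of slide 1, at 2.12, against 1.63 on the next SED array. Of 21 vessel growth genes 3 were higher (14.3%, against 6.63%): Cxcl12, a chemokine of stromal cells, at 0.66 ± 0.18 (0.24 on its other probe, which had an unadjusted limma p of 0.197), Nrp1, a VEGF coreceptor, at 0.30 ± 0.09, and Thbs1, a matrix protein that restrains vessels, at 0.95 ± 0.35. Of 23 growth and IGF genes 1 was higher (4.35%, against 6.63%) and 1 lower (4.35%, against 2.25%). The higher one was Irs1, the insulin receptor substrate, at 0.53 ± 0.17. Eif4ebp1, which restrains translation, differed by -0.48 ± 0.16. Of 32 collagen and matrix genes 2 were higher (6.25%, against 6.63%) and 1 lower (3.1%, against 2.25%), with a list median of 0.07. The lower one was Dcn, decorin, a matrix proteoglycan, at -0.38 ± 0.10. Of 27 immediate early genes, which answer a bout within hours, 19 were lower (70.4%, against 41.6%) with a median of -0.18. In either direction, 0 of them had an unadjusted p under 0.05 (0%, against 8.88% of all features).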

How the data were processed

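RNA of rat soleus was hybridised to 1-colour Agilent arrays, 1 per rat. The authors deposited scanner files of spot intensities made with Agilent Feature Extraction (11.5.11.1 per the submitters' processing notes, 11.5.1.1 per the file headers), with background subtraction already done in the processed signal per the file headers. The authors also deposited a normalized log2 table; its columns share 1 distribution (largest spread at a rank 0.0031), and the tool is not named in the labels. It was used as an alternative only.

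From 62976 spots, 4259 control spots and the outlier-flagged spots (383 to 1206 per array) were dropped, and no spot was saturated. The log2 processed signal was centred on each array's 75th percentile, spots of a probe were averaged, and 30 probes with a missing value were left out. A feature was kept where 8 or more of the 16 arrays had it well above background, with the brightest probe for each gene. Of 30367 probes, 19329 were named by accession, 4549 by the file's symbol and 444 by synonym, and 6045 had no name. The 16 arrays were fitted with limma 3.58.1 in R 4.3.3 (group and slide, eBayes, Benjamini-Hochberg, threshold 0.05), tested on simulated data first. The number of arrays limits the precision.

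The members and lists were chosen with earlier results of these data known. Named genes were the 10 with the smallest p in each direction, list members with the smallest p under 0.05, a panel of 22 genes and the 5 genes most like Fgf2; all other genes named, and the promoters and figures shown, were chosen after their values were seen. Same-numbered rats of the groups correlated at 0.23 to 0.85 over features after group means were removed. Numbers 1, 2, 7 and 8 share a slide, and after slide was also removed the correlations were -0.32 to 0.24. The rats differ, so the numbers were not taken to pair them. Some genes of the lists are counted but not reported by name here.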

Additional observations from a re-analysis of the deposited data

Results flagged for a closer look

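Of 274 groups of 8 values examined, 9 held 1 array whose gap to its nearest neighbour, as a share of the group's range, was above Dixon's critical value of 0.526. Chance gives about 1 in 20 such groups. On SED replicate 3 the fast myosins Myh1, Myh2 and Myh4 were at -3.51, -1.50 and -4.24, against 1.25, 5.08 and -0.66 on the next lowest SED arrays. On DETR replicate 8, Cpt1b was lowest at 5.40, Mpo highest at -2.14, and the list levels of fibroblast and macrophage markers lowest at -0.61 and -0.87. On SED replicate 7, Ms4a4a, a macrophage gene, was at -5.42, and on SED replicate 2, Pgm1 was highest of its group at 2.12.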

How the results depend on the processing

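No gene passed an adjusted p of 0.05 in limma under any setting run, and 4 passed at 0.1. Features at an unadjusted p under 0.05 numbered 1752, 826 without the slide term, 785 with all 24 arrays, 824 on slide 3 alone, 2610 with array weights and 1550 to 2579 when 1 array was left out (2579 without DETR replicate 7). Of 1088 list medians recomputed, 37 moved by more than the spread used. Signs that turned were these. Without the slide term, and with the replicate block in its place, the values were Aldoa 0.040, Cd34 -0.030, Cs 0.082, Idh3a 0.031, Lmod1 0.12, Myh2 0.91, Myh4 0.49, Pygm 0.012 and Slc2a4 0.022. On slide 3 alone they were Angptl4 0.014, Cd36 0.0037, Cs 0.034, Gzma -0.013, Nr4a3 0.48 and Ppargc1a -0.036. On slide 1 alone they were Myh2 0.43, Myh4 0.51, Slc2a4 0.0076 and Vegfa -0.052. With array weights they were Myh2 0.19, Myh4 0.21 and Vegfa -0.0035. With slide as a random block Myh4 was 0.034, and with all 24 arrays Cs was 0.042 and Ndufa1 -0.0076. Myh7 was -0.020 after normexp and -0.063 in the authors' table. Leaving out 1 array gave Myh2 -0.43 to 0.26, Myh4 -0.30 to 0.31, Nr4a3 -0.88 to 0.80, Ppargc1a -0.10 to 0.24 and Slc2a4 -0.13 to 0.0088. The cause was not tested.

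With the replicate block beside the slide term, 1931 features had an unadjusted p under 0.05, 0 passed the adjusted threshold, and Nr4a3 was 0.0076. With the block in place of the slide term there were 2115. The block changed no call, and 1 of 8 SED arrays correlated best with its own number. Slide 3 had the lowest signal, so dim genes there are the least precise.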
